A study of Allium sativum with 42 samples.

Results

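The genes described here had their highest mean level in garlic (Allium sativum) bulbs at 217 days. They stood far lower at the youngest and oldest ages sampled, 192, 197, 222 and 227 days. They were chosen from the deposited table by the means of the 3 libraries at each bulb age. A gene entered when its highest of the 8 age means was at 217 days and at least 10 FPKM (fragments per kilobase of gene length and per M mapped fragments), and its means at 192, 197, 222 and 227 days were each at most 1/3 of that peak. This chose 96 of 58219 gene IDs, of which 45750 were above 0 in at least 1 library. The 217-day mean reached 10 FPKM in 13023 genes, and 2806 of those had their highest bulb mean at 217 days. The peak at 217 days is therefore how the genes were picked, and every value set against 217 days is given as a description, with no test.

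RNA was taken from plants of the cultivar Ershuizao, 3 libraries per group, 42 in all. Bulbs were sampled at 8 ages, every 5 days between 192 and 227 days, a window the labels describe as spanning bulb expansion. The other tissues were flowers labelled 217 days, buds labelled 10 days, and roots, leaves, pseudostems and garlic sprouts labelled 212 days; the growth protocol gives those 4 a harvest date that matches the 217-day bulbs. Nothing states that the 3 libraries of a group came from separate plants, so the p-values measure the spread between libraries, which may be technical.

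A garlic bulb is a cluster of cloves, each a swollen storage leaf around a bud, seated on a short basal plate that carries the roots. The pseudostem above it is a tube of leaf sheaths, and the leaf blades open from its top. During expansion the storage leaves fill with fructans and storage proteins, and late in the season the outer sheaths dry to papery skins. A bulk bulb sample mixes these parts, and in such a sample more cells of a type and more RNA per cell cannot be told apart. The deposited table does not pair gene IDs with names, so no function is given for any gene here, and the tissue labels were not checked against marker genes.

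Depth, as whole reads recovered from the FPKM values, was 12.8 to 35.4 M in bulb libraries and 5.9 to 30.5 M in the other tissues. The 217-day libraries held 21.8, 12.8 and 22.2 M reads in replicates 1, 2 and 3. Replicate 2 was the shallowest of the 24 bulb libraries, and it was also the library on which most of the choice rested. Without it the same rule picked 40 genes, of which 30 were among the 96 (31.2% of the 96 and 75% of the 40). Without replicate 1 it picked 186 genes with 92 of the 96 among them, and without replicate 3 it picked 154 with 81. With medians of the 3 libraries in place of means, 85 genes passed and 46 were shared. Results below are given for the 96 genes and, where it matters, for the 30 that did not need replicate 2.

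The library dependence was visible across the list. Replicate 2 was the highest of the 3 217-day libraries for 79 of the 96 genes (82.3%), replicate 3 for 16 and replicate 1 for 1. Among the other 2710 genes of at least 10 FPKM that peaked at 217 days, replicate 2 was highest for 65.9%, and among all other 12927 genes of at least 10 FPKM it was highest for 41.8%. Of the level summed over the 3 libraries, the median gene had 17.5% in replicate 1, 54.5% in replicate 2 and 25.6% in replicate 3. Replicates 1, 2 and 3 exceeded each of the 21 bulb libraries of other ages for 26, 87 and 47 genes. All 3 of them did so for 13 genes, 2 of them for 44, 1 for 33 and none for 6. The coefficient of variation over the 3 libraries (the SD as a percent of the mean) had a median of 71.7% and ran between 21.7% and 158%. Replicate 2 thus had the lowest depth and the highest levels of these genes, and the part of depth in the peak was not tested.

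The 217-day means of the 96 genes ran between 10.35 and 506.7 FPKM with a median of 27.1 FPKM. A mean of at least 50 FPKM was reached by 32 genes and of at least 100 FPKM by 15. The summed level of the 96 genes was 2896, 8232 and 5993 FPKM in the 217-day libraries. In the other 21 bulb libraries the sum was highest in replicate 2 of the 202-day bulbs, at 2759 FPKM, and lowest in replicate 1 of the 192-day bulbs, at 334.6 FPKM. As a share of the peak, the median gene stood at 3.73% and 3.54% in bulbs of 192 and 197 days, and at 33.9%, 17.0% and 21.9% in those of 202, 207 and 212 days. After the peak it stood at 18.7% in 222-day and 23.1% in 227-day bulbs. Both youngest ages were thus far below the bound that the rule set, and 39 genes had means below 1 FPKM at both 192 and 197 days.

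**Figure D1:**
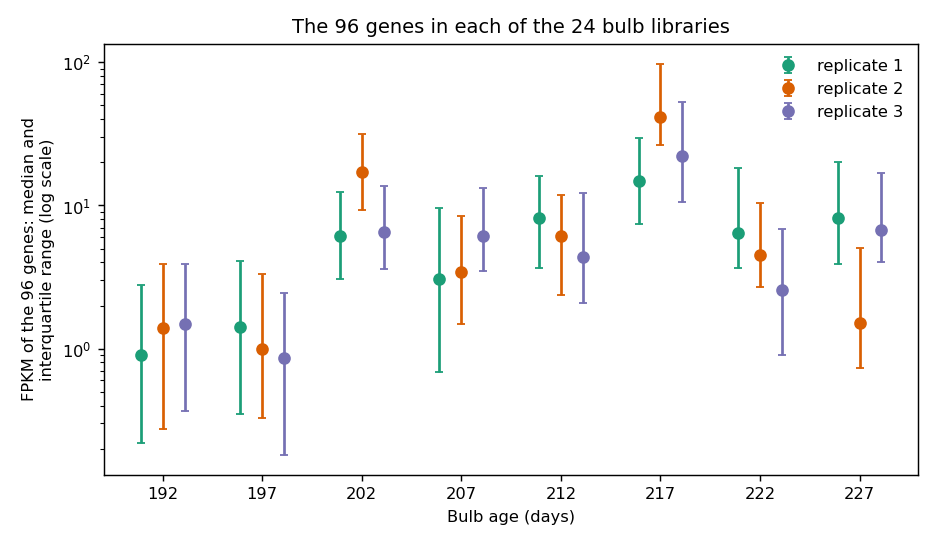
FPKM of the 96 genes in each of the 24 bulb libraries on a log scale, by bulb age in days; points are medians over genes, bars the interquartile range and colours the replicate numbers. The 217-day medians are 14.7, 41.7 and 22.2 FPKM in replicates 1, 2 and 3, and replicate 2 of the 202-day bulbs, at 17.1 FPKM, lies above replicate 1 of the 217-day bulbs.

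The rule set no bound at 202, 207 and 212 days other than the peak itself, and the levels there were uneven. The second highest age mean belonged to the 202-day bulbs in 49 genes, the 212-day bulbs in 16 and the 227-day bulbs in 15. The 207-day bulbs held it in 9 genes, those of 222 days in 6 and those of 192 days in 1. The ratio of the 217-day mean to this second highest mean had a median of 2.47 and ran between 1.01 and 10.2. It was at least 2 for 68 genes and at least 3 for 40. Means were higher at 202 than at 207 days for 79 genes, and for 56 once replicate 2 of the 202-day bulbs was left out. That library was the highest of its age for 86 of the 96 genes, with a median of 17.1 FPKM against 6.14 and 6.55 FPKM in the other two 202-day libraries.

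At 227 days replicate 2 stood apart in the other direction. Its median over the 96 genes was 1.52 FPKM, while replicates 1 and 3 had 8.21 and 6.77 FPKM. Without it the rule picked 64 genes, 61 of them among the 96. The 227-day mean was the closest of the 4 bounded ages to the limit of 1/3 for 60 genes, the 222-day mean for 32 and the 192-day mean for 4. In 57 genes the highest of those 4 means was above 25% of the peak, and in 19 it was above 30%. At the edge of the rule, Asa4G05023.1 was just inside the minimum of 10 FPKM with a 217-day mean of 10.35 FPKM, and Asa2G02777.1 just outside with 9.51 FPKM. At the limit of 1/3, Asa4G01155.1 was just inside with a 227-day mean of 33.25% of its peak, and Asa5G06565.1 just outside with a 222-day mean of 33.34%.

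**Figure D2:**
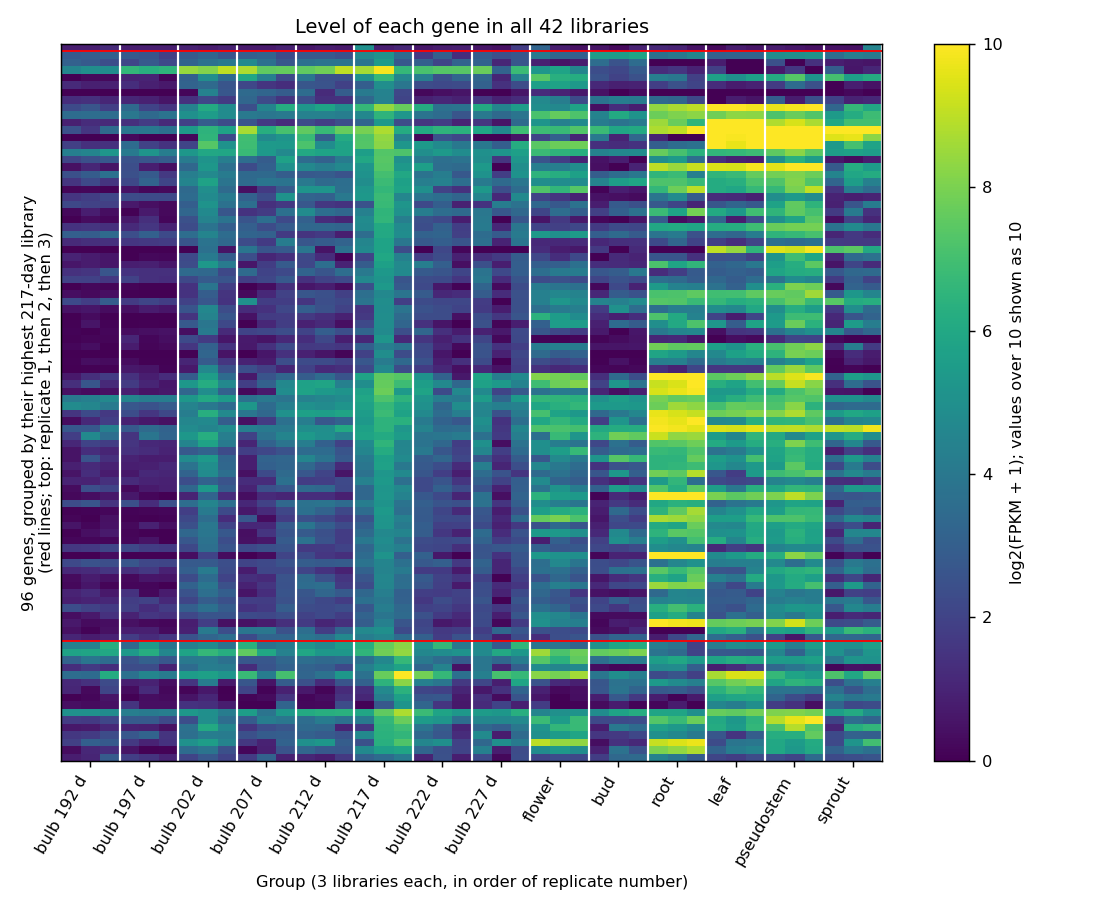
Level of each of the 96 genes (rows) in all 42 libraries (columns, 3 per group in order of replicate number), as log2(FPKM + 1). Red lines separate the 1, 79 and 16 genes whose highest 217-day library was replicate 1, 2 or 3; the middle block is bright in replicate 2 of the 217-day and 202-day bulbs and in roots and pseudostems.

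Individual genes showed how unlike the 217-day libraries were. Asa4G03288.1 had the highest 217-day mean. It had 12.2, 206 and 1302 FPKM in the 217-day libraries, and its next highest mean was at 222 days, with 231, 98.9 and 11.8 FPKM. The 2 ages overlapped, and replicate 3 alone put the mean at 506.7 ± 696 FPKM (SD, n = 3). Outside the bulb it was high in leaves, at 415, 695 and 674 FPKM, and in flowers, at 295, 241 and 394 FPKM, but at only 2.75 to 5.25 FPKM in roots.

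Over the 14 group means of log2(FPKM + 1), the genes with the profiles most like that of Asa4G03288.1 were Asa2G02259.1 (Pearson r = 0.877) and Asa3G03112.1 (r = 0.861). Neither was among the 96. These correlations describe 14 points that share their libraries and carry no test. At 217 days Asa2G02259.1 had 4.22, 4.60 and 3.08 FPKM in replicates 1, 2 and 3, without the high replicate 3 of Asa4G03288.1.

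Asa6G02301.1 had the next highest 217-day mean, with 402, 935 and 100.5 FPKM. Its mean was 26.4 FPKM at 192 days, 88.2 FPKM at 197 days and 384 FPKM at 202 days, and the 202-day libraries, at 347, 281 and 524 FPKM, overlapped those of 217 days. In contrast to most of the list it was low outside the bulb, and its highest tissue was the flower, at 36.7, 55.1 and 22.7 FPKM.

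Asa1G00803.1 had the largest ratio of the peak to the next age, 10.2. It had 1.49, 25.4 and 81.8 FPKM at 217 days, and 0.562, 1.70 and 8.4 FPKM at 227 days, its next highest age. Replicate 1 of the 217-day bulbs was within the range of the other ages. Asa7G03222.1 had a ratio of 9.68 and the largest coefficient of variation, 158%, and its peak came from 1 library: it had 30.2 FPKM in replicate 1 but 0.786 and 1.08 FPKM in replicates 2 and 3. It was the only gene of the 96 that was highest in replicate 1, and an isolated value of 20.98 FPKM also stood in replicate 3 of the garlic sprouts, against 0.387 and 0.369 FPKM in replicates 1 and 2. Asa7G00522.1, with a coefficient of variation of 157%, had 36.1 FPKM in replicate 2 and 1.17 and 1.25 FPKM in replicates 1 and 3.

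At the other end, Asa6G07376.1 and Asa4G05023.1 had the smallest ratios. Asa6G07376.1 had 18.01, 22.2 and 10.7 FPKM at 217 days and 14.2, 11.6 and 24.5 FPKM at 212 days, so that the 2 ages overlapped fully and the ratio was 1.01. Asa4G05023.1 had 3.60, 23.4 and 4.003 FPKM at 217 days and 0.610, 24.2 and 4.38 FPKM at 202 days, with replicate 2 far above the rest at both ages. Its ratio was 1.07.

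The 217-day libraries were most alike for Asa6G06037.1 and Asa3G06113.1. Asa6G06037.1 had 54.9, 68.0 and 43.9 FPKM at 217 days, a coefficient of variation of 21.7%, but 73.2 FPKM in replicate 2 of the 202-day bulbs was higher than each of them. Asa3G06113.1 had 8.14, 13.7 and 10.1 FPKM at 217 days, a coefficient of variation of 26.3%, and all 3 lay above every other bulb library, the nearest of which was replicate 3 of the 227-day bulbs at 5.32 FPKM.

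**Figure D3:**
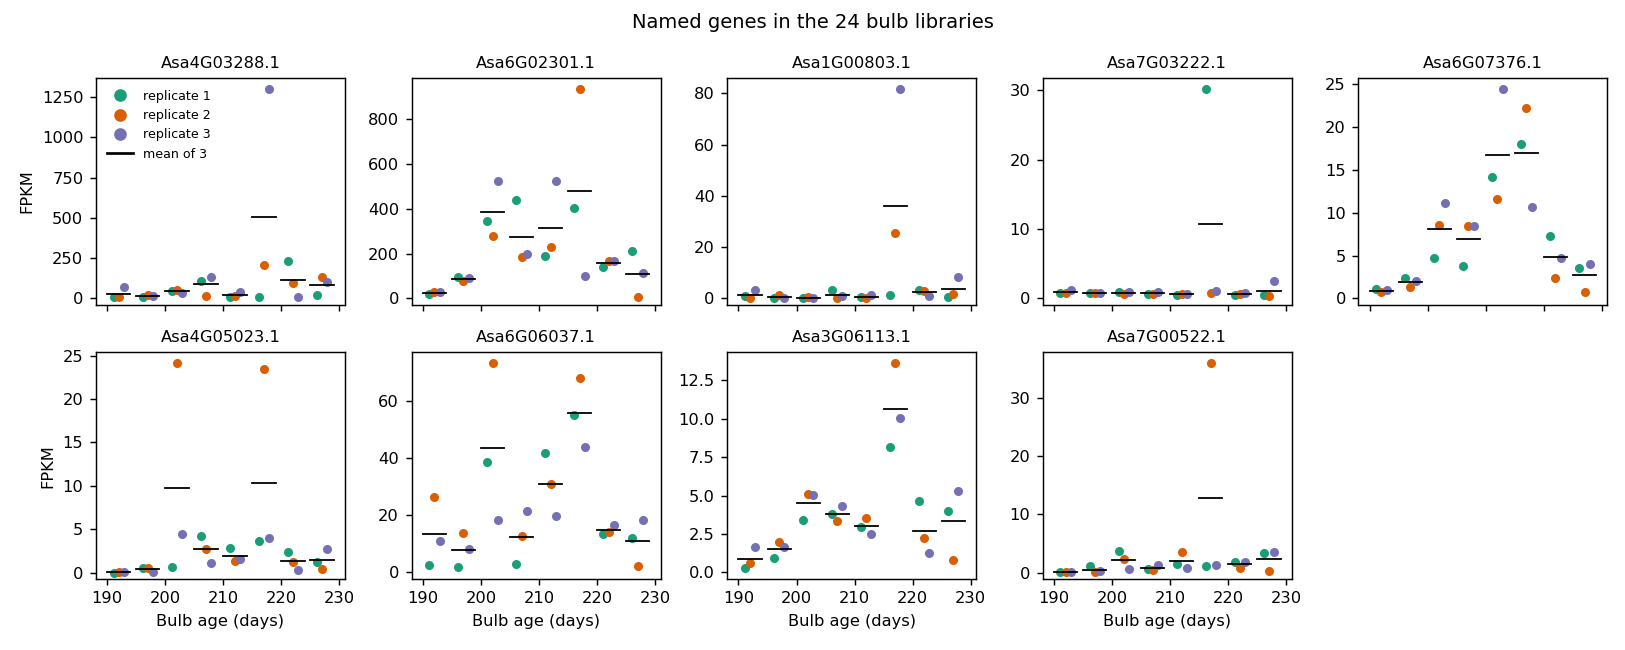
FPKM of 9 named genes in the 24 bulb libraries by bulb age in days; points are libraries coloured by replicate number and black bars are means of 3. Some panels have 1 high library at 217 days, as Asa7G03222.1 does at 30.2 FPKM in replicate 1, and others, such as Asa6G06037.1, do not. Asa4G05023.1 has high points in replicate 2 at both 202 and 217 days.

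The 13 genes for which all 3 217-day libraries exceeded the other 21 held 4 of the 30 that did not need replicate 2. Among the 13, Asa1G03650.1 was one of the most abundant and was picked out after its values were seen. It had 100.1, 337 and 204 FPKM at 217 days, and its highest other bulb library had 72.6 FPKM. It was far higher in leaves, at 1536, 1030 and 904 FPKM, and in pseudostems, at 805, 932 and 1696 FPKM.

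The 6 tissues other than bulb were not read by the rule and could be tested. Genes that reached 1 FPKM in 3 or more of the 18 libraries were compared on log2(FPKM + 1) with limma, and 95 of the 96 passed that filter. The exception was Asa1G05530.1, which was listed at 0 in the root, leaf and pseudostem libraries and had 16.0, 20.7 and 3.33 FPKM in the 217-day bulbs. A call needed an adjusted p under 0.05 together with a log2 difference no smaller than 1. By the moderated F test, 92 of the 95 differed between tissues, against a background of 77.6% of the 33297 genes tested.

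Roots and pseudostems held the highest levels by the median of tissue means, with some overlap between libraries. In replicates 1, 2 and 3 the median gene had 56.3, 92.1 and 84.3 FPKM in pseudostems and 54.0, 56.3 and 31.55 FPKM in roots. In leaves it had 25.3, 23.2 and 58.25 FPKM, so that replicate 3 of the leaves lay above every root library and above replicate 1 of the pseudostems. Median tissue means of the 96 genes were 81.0 FPKM in pseudostems, 55.9 FPKM in roots, 38 FPKM in leaves, 17.1 FPKM in flowers, 10.0 FPKM in garlic sprouts and 4.12 FPKM in buds. The other genes of at least 10 FPKM at 217 days had medians between 21.3 and 29.5 FPKM in those tissues, with buds the highest. The highest tissue was the pseudostem for 37 of the 96 genes and the root for 37, compared with 9.6% and 17.2% of the other genes. It was the flower for 8, the leaf for 8, the bud for 3 and the sprout for 3. In 49 genes (51.0%) both root and pseudostem means were above the other 4 tissues, as in 9.61% of the other genes. For 84 genes the highest tissue mean exceeded the 217-day bulb mean, and for 40 it was at least 5 times as high; the first held for 86.4% of the other genes.

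Each pair of tissues was then compared with limma. Of the 95 genes tested, 81 were higher in pseudostems than in buds (background 14.5% of all genes tested), 72 higher than in garlic sprouts (9.95%), 63 higher than in flowers (17.5%), 42 higher than in leaves (8.77%) and 30 higher than in roots (16.9%). In roots 68 were higher than in buds (15.7%), 61 higher than in garlic sprouts (15.2%), 51 higher than in flowers (15.4%) and 42 higher than in leaves (15.2%). Roots exceeded pseudostems in 12 genes (10.1%), a count that was 21 after median-of-ratios scaling. The background share after that scaling is not given here. Leaves exceeded buds in 61 of the 95 genes (14.9%), garlic sprouts in 48 (10.4%), flowers in 32 (17.6%) and roots in 14 (16.6%). In the opposite direction, 8 of the 95 were higher in buds than in roots, against 35.0% of all genes. The log2 level in buds minus that in pseudostems had a median of -3.89 over the 95 genes and 0.18 over all genes tested.

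**Figure D4:**
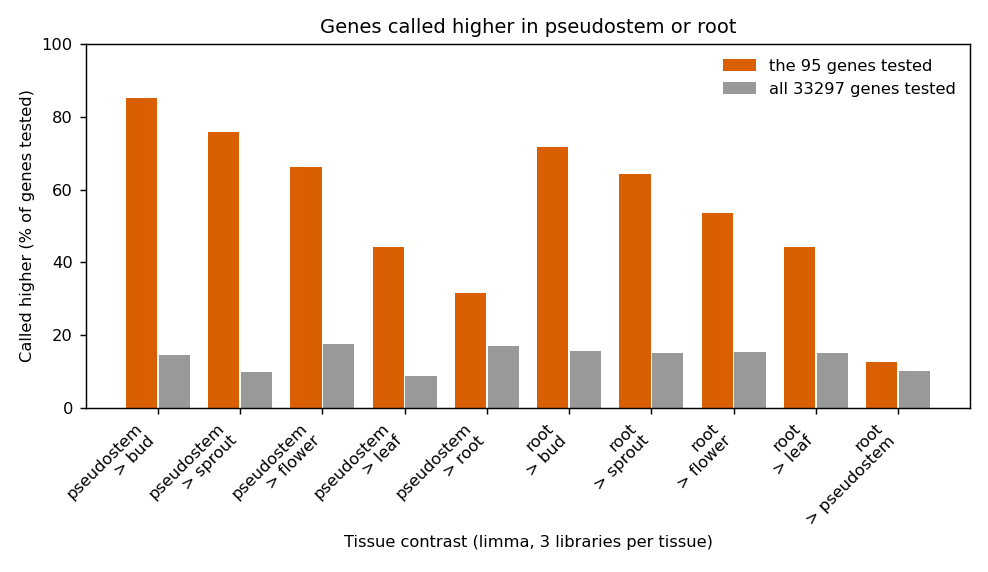
Share of genes called higher in pseudostem or root than in another tissue, in percent, for the 95 genes tested (orange) and all 33297 genes tested (grey); calls are those of the limma fit. The orange bar is the taller in each of the 10 contrasts, and least so for roots against pseudostems.

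Tissue calls were also counted separately for the genes that needed replicate 2 of the 217-day bulbs to be chosen and for those that did not. Of the 30 genes that did not need it, 22 (73.3%) were higher in pseudostems than in buds and 16 (53.3%) were higher in roots than in buds. Leaves also exceeded buds in 22 of these 30 genes (73.3%) and exceeded roots in 9 (30%). Of the 65 tested genes that needed replicate 2, 59 (90.8%) were higher in pseudostems than in buds and 52 (80%) in roots than in buds. Leaves exceeded buds in 39 of the 65 (60%) and exceeded roots in 5 (7.7%). Over all genes tested, the shares in the same order were 14.5%, 15.7%, 14.9% and 16.6%. The highest tissue of the 30 was the pseudostem for 10, the root for 9, the leaf for 6, the flower for 3, the bud for 1 and the sprout for 1. Among the 16 genes with replicate 3 as the highest 217-day library, the highest tissue was the leaf for 5, the pseudostem for 4, the root for 3, the flower for 3 and the bud for 1. Among the 79 with replicate 2 highest, it was the root for 34 and the pseudostem for 33. None of these differences between subgroups was tested.

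A gene was counted as elevated in a tissue when it passed against each of the 5 other tissues. This held for 33 of the 95 genes, against a background of 20.3%. The pseudostem had 15 (background 0.667%), the root 9 (5.73%), the leaf 5 (2.89%), the flower 3 (1.54%), the bud 1 (8.45%) and the sprout 0 (1.02%). The leaf count was 3 without replicate 2 or 3 of the leaves or replicate 1 or 3 of the pseudostems, and the root count was 18 after median-of-ratios scaling. Background shares under those settings are not given here.

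Asa4G05023.1 had the widest margin of the pseudostem genes. It had 190.1, 360.4 and 182 FPKM in pseudostems, against 1.99, 2.06 and 2.11 FPKM in leaves, the nearest tissue. Its log2 difference was 6.25 ± 0.27 (SE, limma, adjusted p = 2.12e-09), and it was at 0.112 to 0.149 FPKM in buds. This is the same gene whose replicate 2 stood out at both 202 and 217 days. Asa2G01427.1 had 30.6, 55.5 and 170.9 FPKM in pseudostems, against 8.32, 0.729 and 3.86 FPKM in leaves. The log2 difference was 3.98 ± 0.71 (limma adjusted p = 0.000795). In 217-day bulbs it had 27.1, 94.5 and 18.3 FPKM.

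Asa3G00501.1 had the widest margin of the root genes. It had 2348, 1537 and 3111 FPKM in roots, against 75.3, 305.3 and 185.7 FPKM in pseudostems. The log2 difference was 3.78 ± 0.44 (limma adjusted p = 4.43e-06). Root levels were 135.7 times its 217-day mean of 17.2 FPKM (10.3, 34.0 and 7.24 FPKM in the 3 libraries), and sprouts and buds were below 1 FPKM. Asa1G04835.1 had 917, 781 and 1083 FPKM in roots, against 91.4, 94.5 and 134 FPKM in pseudostems, a log2 difference of 3.12 ± 0.60 (limma adjusted p = 0.000538). It was also one of the 13 genes with all 3 217-day libraries on top, at 38.9, 86.7 and 80.5 FPKM, and its highest other bulb library had 30.8 FPKM.

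Fewer genes were elevated elsewhere. In flowers Asa8G04734.1 had 49.5, 53.8 and 40.9 FPKM, against 2.33, 10.4 and 4.60 FPKM in pseudostems, a log2 difference of 3.03 ± 0.35 (limma adjusted p = 3.80e-06). Asa6G02301.1 differed by 2.76 ± 0.59 between flowers and buds (limma adjusted p = 0.000993), where buds had 4.10, 3.41 and 6.13 FPKM. In leaves Asa1G00803.1 had 86.1, 132 and 96.8 FPKM, against 13.1, 13.1 and 11.7 FPKM in pseudostems, a log2 difference of 2.94 ± 0.31 (limma adjusted p = 8.51e-06). Asa5G01664.1 had 22.2, 18.03 and 29.6 FPKM in leaves, against 8.47, 3.50 and 3.97 FPKM in garlic sprouts, a log2 difference of 1.999 ± 0.45 (limma adjusted p = 0.00217) that missed the call with a pseudocount of 0.1 FPKM. It had 1 read in replicate 1 of the 217-day bulbs, at 0.0748 FPKM, with 5.77 and 35.5 FPKM in replicates 2 and 3. Asa5G02363.1 was the bud gene, with 10.9, 4.83 and 10.6 FPKM in buds, against 4.43, 0 and 1.72 FPKM in pseudostems, and it was listed at 0 in all 3 root libraries. Its log2 difference was 1.92 ± 0.44 (limma adjusted p = 0.00155).

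Bulb ages that the rule treated alike were also compared with limma, in a fit of the 21 bulb libraries other than those of 217 days. The rule had read these means too. All had to lie below the peak, and those of 192, 197, 222 and 227 days at most at 1/3 of it. The choice of genes thus bounds the differences, and the calls and p-values between these ages are not independent of it. Of the 96 genes 95 were tested among 30102, and Asa7G03222.1 was not. Counts of calls, in either direction, were near or below the background. At 197 against 192 days 1 gene was called (background 1.17%), at 207 against 202 days 0 (0.103%), at 212 against 207 days 1 (2.69%), at 212 against 202 days 4 (4.05%) and at 227 against 222 days 0 (0.00332%). At an unadjusted p below 0.05 the counts were 5, 36, 19, 21 and 2 of the 95, and 4931, 3620, 7074, 7012 and 3380 of the 30102. The low count of calls at 207 against 202 days therefore does not show that the 95 genes did not differ there. Median log2 differences over the 95 genes were -0.73 at 207 against 202 days (0.05 over all genes), 0.31 at 212 against 207 days (-0.11) and -0.33 at 212 against 202 days (-0.06). They were -0.06 at 197 against 192 days (-0.13) and 0.08 at 227 against 222 days (-0.10).

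Asa4G05177.1 was the firmest of these calls. It had 1.83, 2.28 and 0.782 FPKM at 212 days, against 10.9, 22.1 and 10.6 FPKM at 202 days, and fell by 2.53 ± 0.45 on the log2 scale (limma adjusted p = 0.00361). The call held in all 29 alternatives tried, but these reuse the same libraries and the same choice of genes. In 217-day bulbs this gene had 10.8, 65.0 and 27.8 FPKM, and in pseudostems 90.2, 103.5 and 135 FPKM.

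The remaining calls were close to the threshold. Asa6G00437.1 had 69.0, 77.1 and 80.1 FPKM at 212 days, against 38.7, 30.7 and 17.6 FPKM at 202 days, and rose by 1.42 ± 0.41 (limma adjusted p = 0.0450). Asa0G00440.1 had 0.904, 1.26 and 0.323 FPKM at 212 days, against 5.85, 14.3 and 3.52 FPKM at 202 days, and fell by 2.13 ± 0.56 (limma adjusted p = 0.0290). Asa0G05732.1 fell by 1.90 ± 0.54 between the same ages (limma adjusted p = 0.0415), with 3.49, 1.39 and 0.0740 FPKM at 212 days and 3.67, 16.0 and 6.56 FPKM at 202 days. The 2 ages did not overlap for any of the 3 genes. Without replicate 2 of the 202-day bulbs these 3 genes missed the call, and Asa4G05177.1 kept it. The 3 calls were also lost under other settings. Over all alternatives, Asa6G00437.1 and Asa0G05732.1 each kept the call in 14 and lost it in 15. Asa0G00440.1 kept it in 21 and lost it in 7.

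Asa3G06764.1 had 35.3, 34.9 and 11.5 FPKM at 212 days, against 0.329, 2.24 and 6.39 FPKM at 207 days, and rose by 2.999 ± 0.84 on the log2 scale (limma adjusted p = 0.0471). Asa1G04789.1 had 5.55, 4.80 and 6.25 FPKM at 197 days, against 27.1, 22.9 and 16.3 FPKM at 192 days, and fell by 1.80 ± 0.42 (limma adjusted p = 0.0330). Its level was higher again at 217 days, with 51.9, 101.2 and 59.0 FPKM, each above every other bulb library. The count of such calls moved with single libraries. Calls over all genes in those fits are not set beside the counts. A shift of the listed genes therefore cannot be told from a shift of the whole fit. At 212 against 207 days it was 15 without replicate 3 of the 207-day bulbs, 9 without replicate 2 of the 227-day bulbs, 3 without replicate 1 or 2 of the 222-day bulbs, and 2 without replicate 3 of the 212-day or 222-day bulbs or replicate 1 of the 227-day bulbs. It was 0 without any 1 of the 192-, 197- and 202-day libraries, replicate 1 or 2 of the 207-day or 212-day bulbs, or replicate 3 of the 227-day bulbs.

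At 212 against 202 days the count was 9 without replicate 2 of the 227-day bulbs and 7 without replicate 3 of the 207-day bulbs. It was 2 without any 1 of the 192- and 197-day libraries, replicate 2 of the 202-day bulbs or replicate 1 of the 212-day bulbs, and 1 without replicate 2 or 3 of the 212-day bulbs. At 207 against 202 days it was 7 without replicate 3 of the 207-day bulbs, 3 without replicate 2 of the 227-day bulbs and 1 without replicate 3 of the 222-day bulbs. At 197 against 192 days it was 2 without replicate 2 of the 227-day bulbs, and 0 without replicate 1 or 2 of the 192-day bulbs or any 1 of the 197-day libraries. Here too, calls over all genes in those fits are not set beside the counts.

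Over the 4560 pairs of the 96 genes, the median Pearson r of log2(FPKM + 1) was 0.69 over the 24 bulb libraries, with quartiles of 0.537 and 0.795. Over the 18 libraries of other tissues it was 0.48, with quartiles of 0.057 and 0.712. No values of other genes are set beside these. The pairs share their libraries, and in bulbs the shared peak was part of the rule, so these are descriptions. Genes outside the list that were elevated in 1 tissue were also followed in bulbs. The 207 pseudostem-elevated genes summed to 10630, 18370 and 7960 FPKM in replicates 1, 2 and 3 of the 217-day bulbs, and replicate 2 was the highest of the 24 bulb libraries. At 202 days they summed to 6452, 10350 and 7208 FPKM, with replicate 2 again the highest of its age, but at 222 days they reached 15800 FPKM in replicate 1. The 1898 root-elevated genes summed to 59410, 60070 and 50660 FPKM at 217 days, below the 60580 to 70210 FPKM of the 212-day bulbs. The median gene of the root list differed from the sum: it was highest of the 24 bulb libraries in replicate 2 of the 217-day bulbs, at 1.38 FPKM, with replicate 2 of the 202-day bulbs next at 1.09 FPKM. The 957 leaf-elevated genes summed to 7234 to 10350 FPKM at 217 days, and replicate 2 was the highest of the 24 bulb libraries in that sum. The median gene of the leaf list was highest in replicate 1 of the 207-day bulbs, at 2.70 FPKM, against 2.44 FPKM in replicate 2 of the 217-day bulbs. The flower-, bud- and sprout-elevated genes had their lowest 217-day sums in replicate 2, at 78400, 96490 and 10290 FPKM. The median gene went the other way in the sprout list, where replicate 2 of the 217-day bulbs was the highest of the 24 bulb libraries, at 3.18 FPKM. In the flower list the 217-day medians were 6.31, 6.68 and 6.54 FPKM in replicates 1, 2 and 3. In the bud list they were 7.09, 4.13 and 4.395 FPKM. The part of pseudostem, root or leaf tissue in the 217-day levels was not tested.

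**Figure D5:**
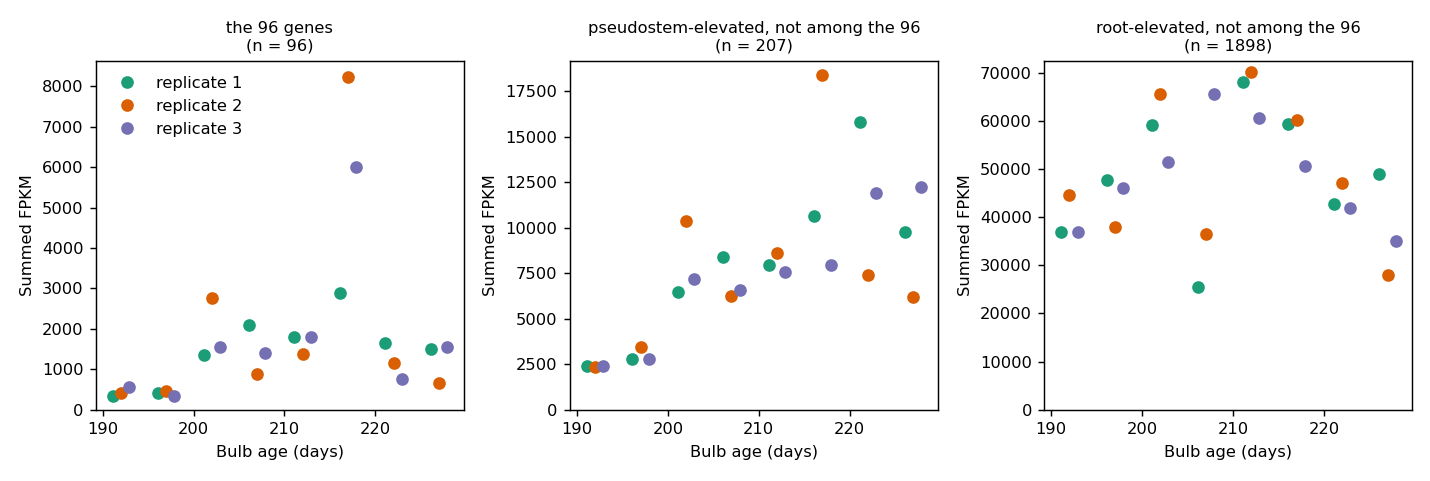
Summed FPKM in each of the 24 bulb libraries, by bulb age in days and coloured by replicate number, for the 96 genes, for 207 other genes elevated in pseudostems and for 1898 other genes elevated in roots. Replicate 2 of the 217-day bulbs is highest in the first 2 panels (8232 and 18370 FPKM); the sum of the root-elevated genes is highest at 212 days.

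Gene IDs and lengths gave a few shared features that the rule did not use. Coding length recovered from the FPKM steps had a median of 729 bases in the 96 genes and 831 bases in the other 12927 genes of at least 10 FPKM. IDs that begin with Asa6G made up 25% of the list (24 genes) and 13.7% of all IDs, those with Asa1G 18.8% (18 genes) and 11.4%, and those with Asa7G 4.2% (4 genes) and 11.1%. In 5 places members had consecutive IDs, 11 genes in all. Among the 189 IDs next to a member 5.8% were members, against 0.165% of all IDs and 0.737% of IDs with a 217-day mean of at least 10 FPKM. Whether ID numbers run in genome order is not given in the sources used here, and how reads that fit near-identical copies were divided is not known, so levels of such neighbours are uncertain.

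The genes of these runs were chosen after their values were seen. Asa2G03517.1 and Asa2G03518.1, each with a coding length of 429 bases, had 6.63, 19.6 and 5.18 FPKM and 9.001, 37.1 and 20.7 FPKM in the 217-day bulbs. Both were elevated in roots, with means of 1069 ± 327 and 1694 ± 798 FPKM (SD, n = 3). Asa0G05731.1 and Asa0G05732.1, each 489 bases long, were elevated in pseudostems, with means of 110.9 ± 70.6 and 70.3 ± 41.9 FPKM.

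Asa1G04834.1 stands next to Asa1G04835.1 and was elevated in roots like it, at 259, 335 and 451 FPKM. Its 217-day libraries, at 25.8, 49.6 and 55.6 FPKM, were all above the highest other bulb library at 19.5 FPKM. Of the run of 3, Asa6G03072.1 and Asa6G03073.1 were elevated in pseudostems, and Asa6G03071.1 was not. Asa6G03072.1 had 39.7, 113 and 23.2 FPKM in 217-day bulbs. The 3 genes had a lower mean in their highest tissue, the pseudostem, than in 217-day bulbs, at 0.60, 0.555 and 0.370 times the 217-day mean.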

How the data were processed

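RNA-seq libraries were compared from 1 table of FPKM values deposited by the authors, with 58219 gene IDs in 42 columns named like the sample titles (0 columns without a sample). The submitters' processing notes name Bowtie2 and RSEM; versions, build and annotation: not given in the sources used here. Genes were chosen by the rule above on means of 3 libraries, and the list, the rule for named genes and the tests were set with earlier results of these data known. Named genes are up to 2 per extreme: highest 217-day mean, largest and smallest ratio to the next age, smallest and largest coefficient of variation, widest margin per elevated tissue, called changes between ages, genes at each limit, and profiles nearest to the top gene.

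Tests used limma 3.58.1 in R 4.3.3 on log2(FPKM + 1), with a variance trend and Benjamini-Hochberg adjustment over all genes that reached 1 FPKM in 3 or more libraries of a fit; differences on this scale understate changes of low genes. The tests were tried first on simulated data with independent libraries and a single spread setting for all genes. That trial does not show how the tests behave on the spread of these libraries. Whole reads were recovered for all 45750 genes above 0 (tolerance 0.001 reads) and give depth and coding lengths. A gene above 0 in few libraries meets that tolerance almost freely. Among the 38950 genes above 0 in 10 or more libraries, 94.5% of the lengths were multiples of 3. A count test planned on the recovered reads was replaced by limma-voom, since the deposited unit is FPKM. Alternatives were other pseudocounts, filters, scalings and limits, single libraries left out, and a replicate block. Replicate numbers were not taken to pair libraries in the main fits. Correlations of deviations between same-numbered libraries were -0.296 to 0.371 in bulbs and -0.135 to 0.189 in other tissues. Their medians were -0.016 in bulbs (0.001 between libraries of unlike number) and 0.008 in other tissues (-0.009). Above 0.1 were 15 of 84 such pairs in bulbs and 9 of 35 in other tissues.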

Additional observations from a re-analysis of the deposited data

How the results depend on the processing

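The number of genes the rule picks was 60 after median-of-ratios scaling, 58 after quantile normalization, 155 and 61 with peak minimums of 5 and 20 FPKM, and 384 and 39 with limits of 1/2 and 1/4. With 1 217-day library alone, chosen after seeing the data, it was 40 (replicate 1), 445 (replicate 2) and 119 (replicate 3), and with single libraries left out 40 to 186. The counts of calls that follow are of listed genes, without the share over all genes under the same setting. Elevated genes were 0 in bud with a filter of 5 FPKM, 18 in root after median-of-ratios scaling, and 2 in leaf with a pseudocount of 0.1. Root exceeded pseudostem in 21 genes after median-of-ratios scaling. Calls at 197 against 192 days were 0 after quantile normalization. At 212 against 207 days they were 0 with a pseudocount of 0.1, 0 with no filter, 3 with a filter of 5 FPKM and 2 after quantile normalization; at 212 against 202 days they were 1, 2 with no filter, and 2 with voom on recovered reads, added later. With a replicate block, 3 genes were elevated in leaf, 0 were called at 212 against 207 days, and the other counts stayed within 1.5 times.

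With single libraries left out, counts were 91 to 93 for the F test, 27 to 34 elevated in 1 tissue, 2 to 3 in flower, 1 in bud, 7 to 12 in root, 3 to 5 in leaf, 12 to 16 in pseudostem and 0 in sprout. Between ages they were 0 to 2 (197 against 192 days), 0 to 7 (207 against 202), 0 to 15 (212 against 207), 1 to 9 (212 against 202) and 0 (227 against 222). These counts too are of listed genes, without the share over all genes under the same setting. Of 406 alternative values of 15 named differences, 343 kept their call, 63 lost it and 0 reversed. The losses lay mostly in differences between bulb ages: 19 were of Asa3G06764.1, 15 each of Asa6G00437.1 and Asa0G05732.1, 7 of Asa0G00440.1 and 6 of Asa1G04789.1. Among differences between tissues only Asa5G01664.1 lost its call, in 1 alternative. The spread between the 217-day libraries, a median coefficient of variation of 71.7%, limits the precision of the peak.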
